A study of Mus musculus with 8 samples.

Results

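The DNA damage repair genes described here are 41 mouse genes, chosen by symbol and sorted by pathway: 9 of damage signalling, 12 of homologous recombination, 4 of end joining, 3 of the Fanconi pathway, 2 of mismatch repair, 5 of base excision repair, 4 of nucleotide excision repair, and 2 that supply nucleotides or copy past lesions. All 41 had values among the 16958 genes measured in intestinal crypts. Levels are in FPKM, fragments scaled to gene length and library size. The mean over 6 crypt libraries reached 1 FPKM for 40 of the 41, and counts and medians below are over these 40. Rad51c, a gene of homologous recombination, stayed under that limit, with levels between 0.67 and 1.22 FPKM.

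Crypts were taken from C57BL/6 mice labelled as 8 weeks old. The WT library is from a mouse labelled setdb1fl/fl, and 5 libraries, VEMD2, VEMD3, VEMD4, VEMD6 and VEMD8, are from mice labelled setdb1 iIEC-KO, in which Villin-CreERT2 removes floxed Setdb1 from intestinal epithelium. SETDB1 is a histone methyltransferase that silences retroelements through lysine 9 of histone H3, and Villin-CreERT2 is a recombinase made under an epithelial promoter of the gut and switched on by tamoxifen. All crypt mice, the WT littermate included, got 1 dose of tamoxifen of 800 mg/kg by gavage. The labels do not state whether the WT mouse carried the recombinase, how many mice gave a library, or what VEMD and its numbers stand for, so these are used as names. Neither stem cell sample of the study was used here. Every group is 1 library, so no value has an error, no difference could be tested, and higher and lower describe these libraries alone. All 5 knockouts are set against the same WT library. Where 5 values follow each other, they stand in the order VEMD2, VEMD3, VEMD4, VEMD6, VEMD8.

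Cells meet a DNA break with sensor complexes and kinases: ATM answers double-strand breaks, ATR answers stalled replication forks, and both pass the signal to checkpoint kinases and to the histone variant H2AX. Broken ends are then joined directly, or copied from the sister chromatid by homologous recombination, which is used after DNA has been replicated. Smaller lesions are cut out by mismatch, base excision or nucleotide excision repair. Crypts are the dividing part of the gut epithelium, and many repair genes are transcribed mainly in dividing cells, while p53 switches on arrest, death and some repair genes after damage.

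Promoters of 4 repair genes are shown because 3 of them share the same motifs while their levels differed, and because the fourth, Polk, had the widest range of ratios to WT. RefSeq windows on GRCm38.p6, from 250 bases before to 50 bases after a start site, were matched for 32 of the 41 genes. Capitals mark matches on either strand to CCAAT (the NF-Y box), TTTGAA (an element of cell cycle genes), TTTGGCGC and TTTCCCGC (E2F-type sites) or the decamer of which a p53 site usually holds a pair. The decamer was added after values had been seen. No marked matches overlap. Each sequence runs along its gene, which is on the plus strand for Msh6 (chr17:87974800-87975099), Mdc1 (chr17:35841248-35841547) and Xrcc6 (chr15:82016119-82016418), and on the minus strand for Polk (chr13:96519138-96519437). The windows of Xrcc6 and Polk are at starts inside the annotated genes, and the window at the upstream start of Polk held no match.
Msh6: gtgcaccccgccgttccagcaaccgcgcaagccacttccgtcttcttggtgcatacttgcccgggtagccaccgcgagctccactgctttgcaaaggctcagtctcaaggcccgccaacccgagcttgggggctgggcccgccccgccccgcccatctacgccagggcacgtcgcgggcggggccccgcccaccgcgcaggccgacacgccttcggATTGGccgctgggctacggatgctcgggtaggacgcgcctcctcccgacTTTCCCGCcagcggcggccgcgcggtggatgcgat
Mdc1: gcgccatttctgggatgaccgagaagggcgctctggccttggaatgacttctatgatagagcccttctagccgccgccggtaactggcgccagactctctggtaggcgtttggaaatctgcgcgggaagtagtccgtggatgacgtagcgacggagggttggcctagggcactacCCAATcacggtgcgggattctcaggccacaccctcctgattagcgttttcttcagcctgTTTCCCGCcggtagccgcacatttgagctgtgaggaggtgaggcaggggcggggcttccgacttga
Xrcc6: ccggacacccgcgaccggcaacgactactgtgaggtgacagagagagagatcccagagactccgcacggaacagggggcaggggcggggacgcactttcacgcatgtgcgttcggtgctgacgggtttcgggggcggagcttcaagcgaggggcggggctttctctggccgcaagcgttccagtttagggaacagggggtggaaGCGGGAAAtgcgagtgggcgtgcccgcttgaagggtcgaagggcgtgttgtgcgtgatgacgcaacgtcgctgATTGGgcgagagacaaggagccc
Polk: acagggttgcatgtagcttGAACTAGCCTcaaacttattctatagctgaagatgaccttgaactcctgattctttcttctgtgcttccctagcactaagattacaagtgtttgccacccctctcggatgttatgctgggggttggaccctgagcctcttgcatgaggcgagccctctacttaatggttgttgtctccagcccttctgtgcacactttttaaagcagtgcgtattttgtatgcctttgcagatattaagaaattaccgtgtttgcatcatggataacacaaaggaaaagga
TTTCCCGC lies 15 bases after the start of Msh6, 16 before that of Mdc1 and 46 before that of Xrcc6, where it is on the other strand. It was found in Bard1, Brca2, Chek2, Mdc1, Msh6, Rad51c and Xrcc6, that is in 7 of 32 repair genes (21.9%), against 2.45% of 8804 tested genes and 1.24% of all 27025 genes with a window. TTTGGCGC was in none of the 32, in 1.17% of tested genes and in 0.585% of all genes. CCAAT was in 19 of the 32 (59.4%), in 43.5% of tested genes and in 41.1% of all genes. TTTGAA was in 2 (Bard1 and Rnf8, 6.25%), in 14.6% of tested genes and in 20.2% of all. The p53 decamer was in 2 (Fanca and Polk), in 8.08% of tested genes and in 9.55% of all. A match describes letters and not a bound site.

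The libraries differed in ways that touch every result below. FPKM summed over all genes was 585501 in the WT library and 481519 to 566585 in knockouts, lowest in VEMD6. Ratios to WT are log2 values after 1 FPKM was added to both levels, and their medians over the 10862 tested genes were 0.09, 0.12, 0.03, -0.23 and -0.06. Setdb1, the targeted gene, had 9.42 FPKM in WT and 6.64, 7.03, 5.49, 3.53 and 4.95, lower in all 5. All 7 markers of crypt epithelium were found, with summed levels of 4779 to 6005 FPKM. The 10 leukocyte markers summed to 12.6 to 27 FPKM, and the 8 stromal ones to 1.39 to 7.15, with Col1a2 and Pdgfra at 0 in WT. Summed Paneth markers went from 11343 FPKM in VEMD2 and 7349 in WT down to 831 in VEMD6. Enterocyte markers went from 1259 in VEMD3 and 4329 in WT up to 8886 in VEMD6. Of the 5 enterocyte markers, 3 passed 1.5-fold upward in VEMD6 and 1 downward. The 5 markers of crypt base stem cells had median ratios of -0.25, -0.52, -0.58, -1.12 and -0.92. All 5 passed 1.5-fold downward in VEMD6, as 25.0% of all tested genes did. So did all 5 goblet and all 5 enteroendocrine markers, with medians there of -1.40 and -1.88. In such bulk RNA, fewer cells of a type and less RNA per cell cannot be told apart. The part of cell makeup in the repair results was not tested.

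Most repair genes were modestly higher than WT in VEMD2 and VEMD3, close to WT in VEMD4 and VEMD8, and lower in VEMD6. Repair RNA summed over the 41 genes was 412 FPKM in WT, against 495, 503, 426, 240.06 and 350.02. The median ratio of the 40 genes was 0.31, 0.28, 0.06, -0.58 and -0.10. It was 0.22, 0.16, 0.04, -0.35 and -0.04 after every library was rescaled to its median gene, and that of VEMD8 turned to 0.11 after rescaling to equal sums. Above WT were 36, 35, 25, 3 and 14 of the 40 genes, where 58.6%, 60.0%, 52.3%, 34.1% and 44.5% of all tested genes were. The sign of some small ratios turned with the scaling. Rescaling to the median gene turned Atm, Palb2, Xrcc3, Xrcc6 and Prkdc in VEMD3, Rnf8 and Ung in VEMD2 and VEMD3, Xrcc1 in VEMD2 and VEMD4, Rnf168 in VEMD4, Trp53bp1 and Rad50 in VEMD8, and Ercc1 in VEMD6 and VEMD8. Equal sums turned Chek2, Prkdc, Pms2, Ung and Apex1 in VEMD4, Ercc1 in VEMD6 and VEMD8, and Atr, Trp53bp1, Rnf168, Palb2, Rad54l, Rad50, Mre11a, Nbn, Fanca, Fanci and Xpc in VEMD8.

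**Figure D1:**
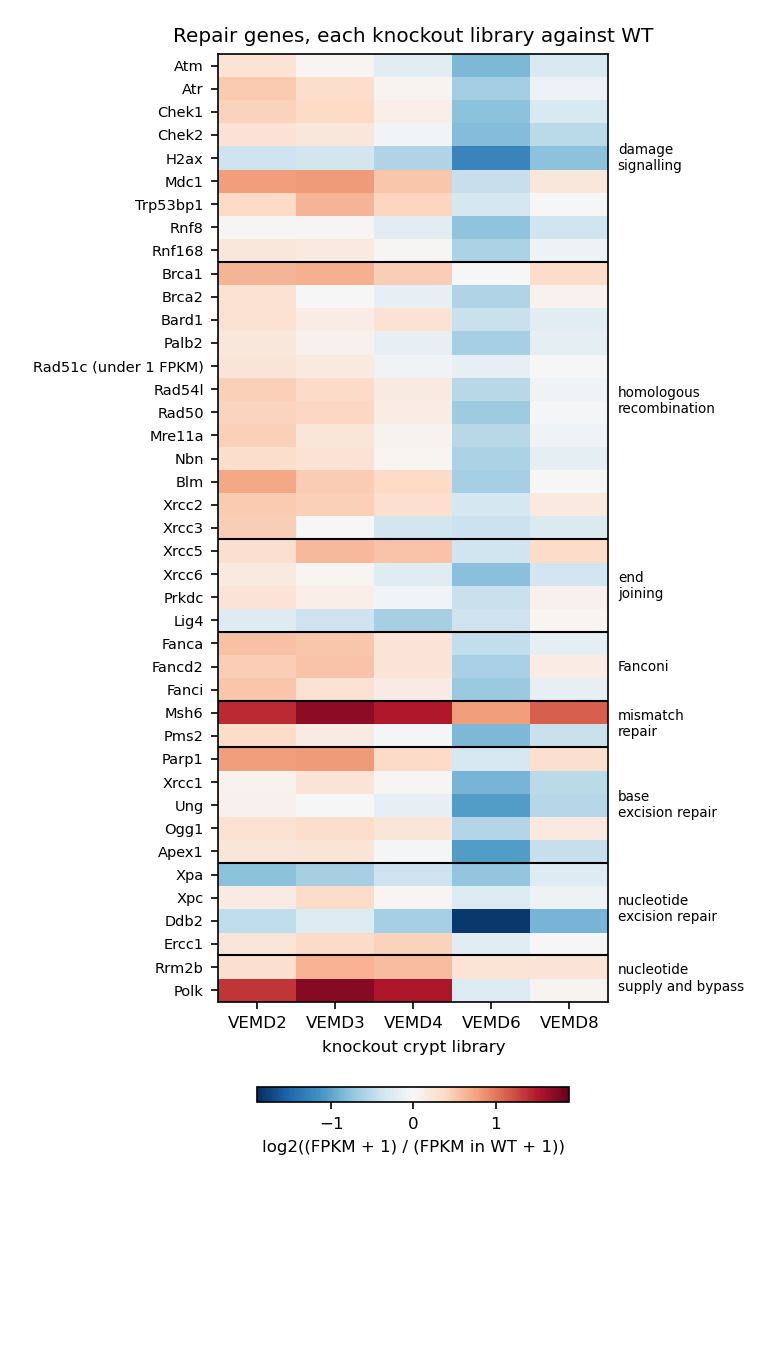
Log2 ratio to WT (colour scale, 1 FPKM added to both levels) of the 41 repair genes (rows, grouped by pathway) in 5 knockout crypt libraries (columns, 1 library each), with red for higher and blue for lower. Msh6 is red in all 5 columns and Polk in the first 3, and the VEMD6 column is blue or white except for Msh6 and Rrm2b.

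Folds here and below are taken with 1 FPKM added to both levels, so that in genes of a few FPKM they are smaller than the ratio of the printed levels. Counted at 1.5-fold from WT, 6 of the 40 were higher and 1 lower in VEMD2, where 10.2% and 7.48% of all tested genes were. VEMD3 had 8 higher and 1 lower, against 16.5% and 11.2%, and rescaling to the median gene left 4 higher and 1 lower, against 11.7% and 14.8%. VEMD4 had 3 higher and 2 lower, against 14.9% and 13.1%. VEMD6 had 1 higher and 20 lower, against 11.3% and 25.0%, and after rescaling 1 higher and 7 lower, against 17.5% and 13.3%. VEMD8 had 1 higher and 2 lower, against 10.8% and 14.7%. The share of repair genes that were lower exceeded that of all genes in VEMD6, while in VEMD4 and VEMD8 both shares were below those of all genes.

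At 2-fold, Msh6 and Polk were higher in VEMD2 (2.44% of all genes), VEMD3 (6.00%) and VEMD4 (7.11%), Msh6 alone in VEMD8 (4.36%) and none in VEMD6 (5.04%). H2ax, Ung, Apex1 and Ddb2 were 2-fold lower in VEMD6 (8.15%), and no repair gene was in VEMD2, VEMD3, VEMD4 or VEMD8 (respectively 2.39%, 4.63%, 5.04% and 5.21% of all). VEMD6 was the lowest of the 6 libraries for 35 of the 40, against 47.3% of all genes, with Brca1, Lig4, Msh6, Xpa and Rrm2b as exceptions. The highest library was VEMD2 or VEMD3 for 35 of the 40, against 43.4%. WT was highest for H2ax, Xpa and Ddb2 (3 of 40, against 21.0%) and lowest for Brca1, Msh6 and Rrm2b (3 of 40, against 17.1%).

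Genes of dividing cells had medians of the same sign as the repair genes in each knockout library. The 25 genes of the proliferation list had 0.37, 0.34, 0.14, -0.74 and -0.25, and 19 of them were at least 1.5-fold lower in VEMD6, against 25.0% of all genes. Minus that list's median, the repair median was -0.063, -0.056, -0.075, 0.15 and 0.16. Of the repair genes, 13 known as linked to the cell cycle (such as Chek1, Brca1 and Fancd2) had medians of 0.47, 0.38, 0.24, -0.57 and -0.06. The 23 placed in neither the cell cycle nor the p53 group had 0.28, 0.24, 0.02, -0.61 and -0.11. These 23 are not free of such links, since checkpoint genes such as Atm, Atr and Chek2 are among them. Mki67, a marker of cycling cells, had 37.5 FPKM in WT and 53.1, 41, 35.8, 25.1 and 44.2, and Top2a, a topoisomerase of dividing cells, had 81.7 and 119, 99, 84.9, 45.9 and 76.3. The part of cell division in the repair results was not tested.

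**Figure D2:**
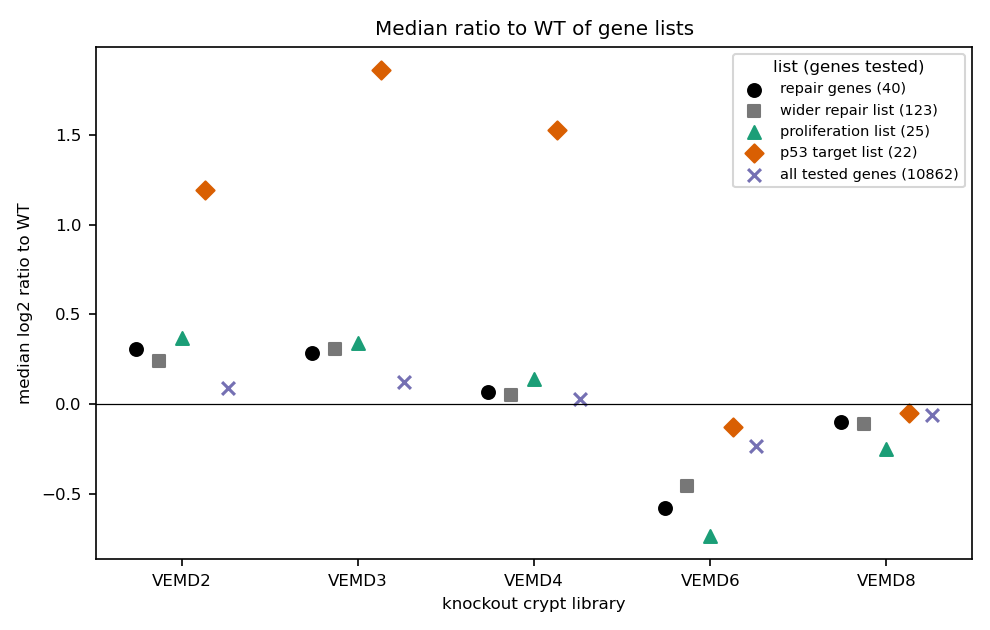
Median log2 ratio to WT (vertical axis, 1 FPKM added) of 5 gene sets in each knockout crypt library (horizontal axis), with the number of genes tested in the legend. The 40 repair genes lie nearer to the proliferation list than to all tested genes in VEMD2, VEMD3 and VEMD6. In VEMD4 and VEMD8 they lie nearer to all tested genes. The p53 target list is at 1.19, 1.86, 1.53, -0.13 and -0.05 from left to right.

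Damage signalling had medians of 0.28, 0.22, 0.03, -0.77 and -0.29 over 9 genes, and 7 of the 9 were at least 1.5-fold lower in VEMD6, all but Mdc1 and Trp53bp1, against 25.0% of all tested genes. After rescaling to the median gene, 2 of the 9, Atm and H2ax, were, against 13.3% of all tested genes. Atm, the kinase of double-strand breaks, was at 4.18 FPKM in WT against 5.23, 4.32, 3.51, 1.86 and 3.25. For Atr, the kinase of stalled forks, WT had 4.89 and the knockouts 7.33, 6.4, 5.12, 2.71 and 4.46. Both kinases were highest in VEMD2 and lowest in VEMD6. Chek1, the checkpoint kinase under ATR, had 4.29 FPKM in WT and 6.17, 5.9, 4.78, 2.08 and 3.32 in knockouts, and Chek2, the kinase under ATM, 11.8 and 14.5, 13.9, 11.4, 6.24 and 7.94. Both checkpoint kinases were below WT in VEMD6 and VEMD8. Of 20 further signalling genes tested, 4, 2, 1, 2 and 2 were at least 1.5-fold higher and 0, 0, 1, 8 and 1 lower. Of all tested genes, 10.2%, 16.5%, 14.9%, 11.3% and 10.8% were higher and 7.48%, 11.2%, 13.1%, 25.0% and 14.7% lower.

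H2ax (chromosome 9, 44334715 to 44336077 on GRCm38), the histone variant whose phosphorylated form marks breaks, had the highest WT level of the 41 genes, 87.7 FPKM, against 66.3, 68.3, 58.8, 36.3 and 50.9. It was below WT in all 5 knockouts, unlike the other signalling genes, with ratios of -0.40, -0.35, -0.57, -1.25 and -0.77, which stayed below 0 under both rescalings. These are RNA levels and say nothing of the phosphorylated protein. Mdc1, the scaffold that binds phosphorylated H2AX, was at 5.0 FPKM in WT against 9.4, 9.54, 7.67, 3.43 and 5.93. Its ratios of 0.79 and 0.81 in VEMD2 and VEMD3 stood at the 95.5 and 91.0 percentile of all tested genes.

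Trp53bp1, which steers breaks to end joining, had ratios of 0.38, 0.64, 0.40, -0.33 and -0.01, highest in VEMD3, though exons of Tubgcp4 on the other strand overlap its own. Rnf8, a ubiquitin ligase that acts between MDC1 and 53BP1, had 11.7 FPKM in WT against 12, 12, 9.93, 6.46 and 8.8, and Rnf168, the ligase after it, had ratios of 0.22, 0.18, 0.03, -0.61 and -0.09. In VEMD2 and VEMD3, then, Mdc1 was higher than WT by more than 1.5-fold, H2ax was lower, and Rnf8 was nearest to WT of the 3.

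Homologous recombination had medians of 0.45, 0.28, 0.15, -0.52 and -0.06 over 11 tested genes. Brca1, which directs breaks to recombination, was at 3.77 FPKM in WT against 6.46, 6.59, 5.61, 3.8 and 5.08. WT and VEMD6 were the 2 lowest libraries, and Brca1 was the only gene of the 11 not below WT in VEMD6. Its partner Bard1 had ratios of 0.28, 0.15, 0.28, -0.42 and -0.20. Brca2, a mediator of strand invasion, had 1.49 FPKM in WT and 2.05, 1.49, 1.24, 0.68 and 1.61 in knockouts, and Palb2, which ties BRCA2 to BRCA1, had ratios of 0.21, 0.09, -0.16, -0.63 and -0.17. Neither was 1.5-fold higher in any library.

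Blm, a helicase that dissolves crossed strands, had the widest range of the pathway, with 3.45 FPKM in WT against 6.4, 5.23, 4.79, 1.88 and 3.47. Rad50, Mre11a and Nbn, the complex that first binds broken ends, had similar ratios, with 0.42, 0.39, 0.15, -0.67 and -0.04 for Rad50, 0.45, 0.24, 0.07, -0.52 and -0.07 for Mre11a and 0.34, 0.28, 0.04, -0.60 and -0.17 for Nbn. Rad54l, a motor of strand exchange, had 0.45, 0.36, 0.18, -0.52 and -0.06. Xrcc2, which helps strand exchange, was at 1.52 FPKM in WT against 2.55, 2.44, 2.16, 0.99 and 1.86, above WT in all but VEMD6, and Xrcc3, with a like role, had ratios of 0.47, 0.01, -0.34, -0.41 and -0.28. Of 32 further recombination genes, 4, 5, 1, 1 and 0 were at least 1.5-fold higher and 0, 0, 3, 16 and 6 lower. Among all tested genes, 10.2%, 16.5%, 14.9%, 11.3% and 10.8% were higher and 7.48%, 11.2%, 13.1%, 25.0% and 14.7% lower.

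End joining had medians of 0.22, 0.08, -0.15, -0.41 and 0.06 over 4 genes, and its 2 Ku genes differed. Xrcc5, coding Ku80, was at 7.97 FPKM in WT against 10.1, 12.8, 12, 5.88 and 10.5. Xrcc6, coding Ku70, was at 22.6 against 25.9, 23.3, 19, 12.6 and 17.3. In VEMD4 and VEMD8, Xrcc5 was above WT and Xrcc6 below it, and the level of Xrcc5 over that of Xrcc6 was 0.353 in WT and 0.390, 0.550, 0.631, 0.466 and 0.605 in knockouts. Exons of Desi1 on the other strand overlap 7.69% of those of Xrcc6.

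Prkdc, the kinase that Ku recruits, had ratios of 0.26, 0.12, -0.05, -0.43 and 0.08, within 1.5-fold of WT in all 5 with 1 FPKM added and, at 2.01 FPKM in WT and 1.24 in VEMD6, past 1.5-fold lower with 0.1 added. Lig4, the ligase of this pathway, was at 6.35 FPKM in WT against 5.22, 4.59, 3.76, 4.59 and 6.55. No other repair gene was lowest in VEMD4, and none other was highest in VEMD8. Of 7 further end joining genes, 1, 1, 0, 0 and 0 were at least 1.5-fold higher and 1, 1, 1, 0 and 1 lower. Among all tested genes, 10.2%, 16.5%, 14.9%, 11.3% and 10.8% were higher and 7.48%, 11.2%, 13.1%, 25.0% and 14.7% lower.

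The Fanconi genes, which unhook crosslinks between DNA strands, had medians of 0.52, 0.53, 0.24, -0.61 and -0.15. Fancd2 had 2.34 FPKM in WT and 3.64, 3.88, 2.97, 1.19 and 2.67 in knockouts, and its partner Fanci had 2.47 and 3.99, 3.22, 2.85, 1.12 and 2.12. Fanca, of the core complex that modifies both, had ratios of 0.55, 0.53, 0.24, -0.46 and -0.18. All 3 were above WT in VEMD2, VEMD3 and VEMD4 and below it in VEMD6. None was called 1.5-fold higher with 1 FPKM added, while with 0.1 added the highest ratio of each, 0.63 for Fanca, 0.71 for Fancd2 and 0.67 for Fanci, was past 1.5-fold. Exons of Polg on the other strand overlap 16.0% of those of Fanci, and Polg had ratios of 0.38, 0.43, 0.17, -0.15 and 0.02. Of 10 further genes of the pathway, 0, 1, 0, 0 and 0 were at least 1.5-fold higher and 0, 0, 0, 3 and 2 lower. Among all tested genes, 10.2%, 16.5%, 14.9%, 11.3% and 10.8% were higher and 7.48%, 11.2%, 13.1%, 25.0% and 14.7% lower.

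Mismatch repair held the gene with the highest mean ratio of the 40. Msh6 (chromosome 17, 87975050 to 87990892 on GRCm38), which recognises single mismatches, was at 14.4 FPKM in WT against 40.1, 48.9, 43.3, 25.8 and 33. Every knockout was above WT, with ratios of 1.42, 1.69, 1.52, 0.80 and 1.14 at the 99.1, 98.2, 96.4, 92.7 and 96.6 percentile of all tested genes. Msh6 was the only repair gene at least 1.5-fold higher in all 5, which held for 1.79% of all genes, and no other repair gene joined it when any 1 knockout library was left out. No repair gene was 1.5-fold lower in all 5 (2.17% of all) or 2-fold higher in all 5 (0.571%). The exons of Msh6 share 0.782% of their bases with another gene, Fbxo11. The comparison rests on 1 WT library.

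Pms2, the other mismatch repair gene of the 41, which nicks the strand to be replaced, did not have this pattern. It was at 3.41 FPKM in WT against 4.6, 3.89, 3.29, 1.45 and 2.28, above WT in VEMD2 and VEMD3 and lowest in VEMD6. Msh3, which recognises larger loops, was at 4.69 FPKM in WT against 5.85, 5.48, 4.32, 2.58 and 3.48, and Pms1, a homologue of Pms2, at 2.64 against 3.64, 3.75, 2.18, 1.29 and 2.0. Both were below WT in VEMD6 by at least 1.5-fold, where Msh6 was above it.

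**Figure D3:**
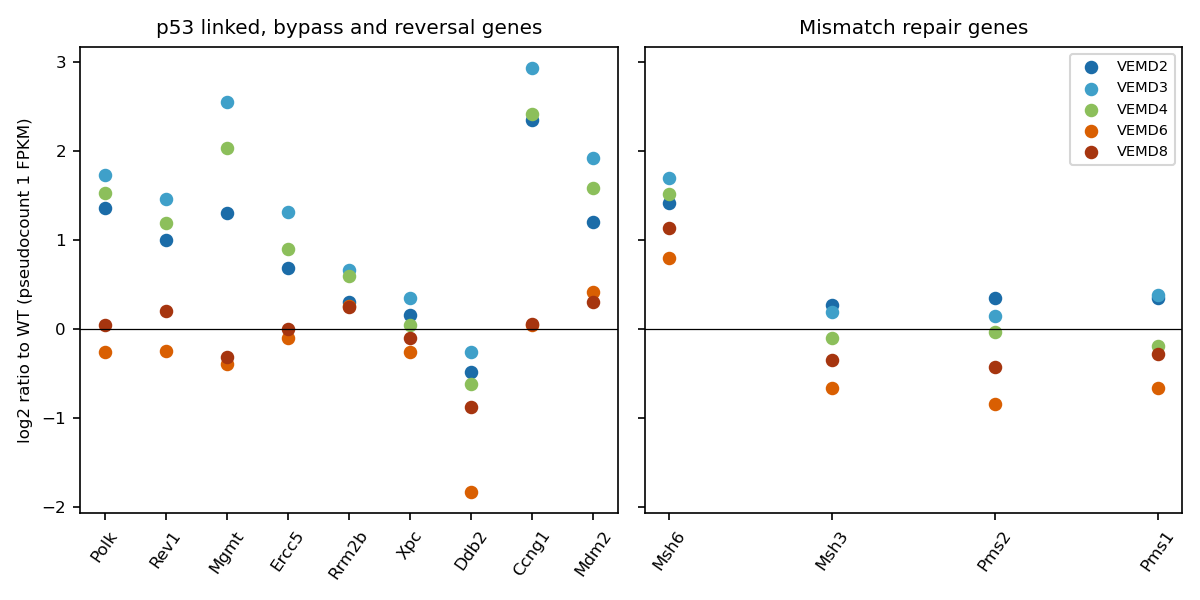
Log2 ratio to WT (vertical axis, 1 FPKM added) of single genes (horizontal axis) in 5 knockout crypt libraries (colours, 1 library per point). Genes grouped as linked to p53 or to lesion bypass and reversal are on the left, and mismatch repair genes on the right. Polk, Rev1, Mgmt, Ccng1 and Mdm2 are above 0 in VEMD2, VEMD3 and VEMD4, Ddb2 is below 0 in all 5, and Msh6 is above each other mismatch repair gene shown in all 5.

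Base excision repair had medians of 0.22, 0.26, 0.02, -0.89 and -0.44 over 5 genes. In VEMD6, 3 of the 5 were at least 1.5-fold lower, against 25.0% of all tested genes. The same 3 were lower after rescaling to the median gene, against 13.3%. Parp1, which binds strand breaks and builds ADP-ribose chains, was at 17.1 FPKM in WT against 30.6, 30.7, 22.4, 13.7 and 21.4. Its ratios in VEMD2 and VEMD3 were 0.80 and 0.81, while Xrcc1, the scaffold that PARP1 draws to breaks, had 0.06, 0.26, 0.02, -0.89 and -0.51. Lig3, the ligase that XRCC1 carries, was at 6.82 FPKM in WT against 11.6, 11.6, 10.4, 6.02 and 8.56. Parp1 and Lig3 were thus higher than WT in VEMD2 and VEMD3 by at least 1.5-fold and Xrcc1 was not.

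Ung, which removes uracil, was at 13.7 FPKM in WT against 14.6, 13.7, 12.2, 6.06 and 9.09, and Ogg1, which removes oxidised guanine, had ratios of 0.30, 0.34, 0.23, -0.55 and 0.19. Apex1, the nuclease that cuts where a base is missing, was at 69.2 FPKM in WT against 81, 82, 67.8, 32.8 and 50.6. Ung and Apex1 had the same ratio in VEMD6, -1.06. The value of Apex1 is uncertain, since 61.7% of its exon bases overlap Pip4p1 on the other strand and the counting is not said to use strand. Pip4p1 was at 20.0 FPKM in WT against 17.3, 15.2, 16.4, 14.6 and 12.7. Of 19 further base excision genes, 1, 2, 0, 0 and 0 were at least 1.5-fold higher and 1, 1, 2, 8 and 2 lower. Among all tested genes, 10.2%, 16.5%, 14.9%, 11.3% and 10.8% were higher and 7.48%, 11.2%, 13.1%, 25.0% and 14.7% lower.

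**Figure D4:**
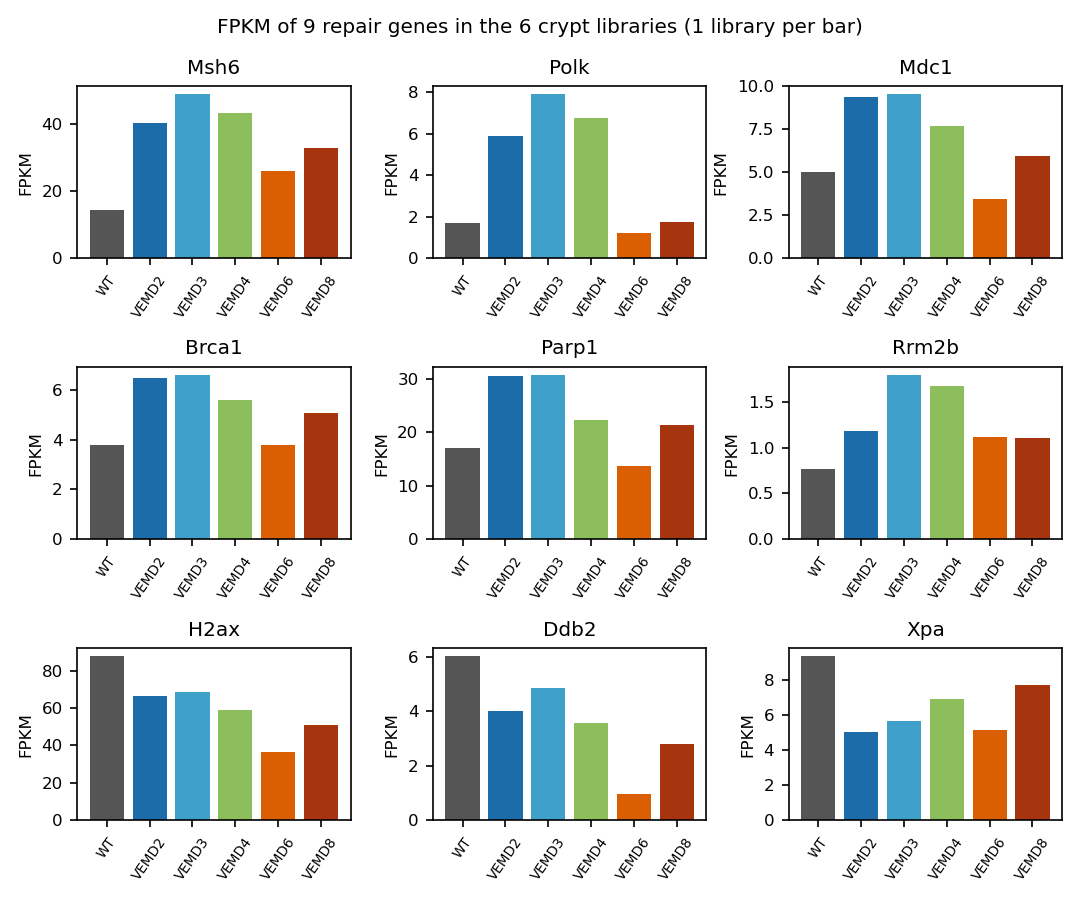
FPKM (vertical axis, from 0) of 9 repair genes in the 6 crypt libraries, each bar 1 library. Msh6, Brca1 and Rrm2b are lowest in WT, H2ax, Ddb2 and Xpa are highest in WT, and Polk, Mdc1 and Parp1 are highest in VEMD3 and lowest in VEMD6.

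Nucleotide excision repair, which removes bulky and ultraviolet lesions, had medians of -0.16, 0.04, -0.18, -0.51 and -0.18 over 4 genes. Where a mean of 5 FPKM was required, the medians of VEMD3 and VEMD4 turned to -0.13 and 0.025, and rescaling to the median gene turned that of VEMD3 to -0.081. Ddb2 (chromosome 2, 91211545 to 91237132 on GRCm38), the ultraviolet damage sensor, was at 6.03 FPKM in WT against 4.02, 4.86, 3.56, 0.97 and 2.82. It was below WT in all 5, and its ratio of -1.84 in VEMD6 was the lowest of any of the 40 genes in any library, at the 1.28 percentile of all genes. Exons of Acp2 on the other strand overlap 23.8% of its exon bases, and Acp2 itself had 8.95 FPKM in WT against 7.75, 6.54, 5.69, 8.75 and 7.94. Ddb1, the partner of DDB2, was at 108 against 137, 142, 122, 105 and 120.46, not below WT by 1.5-fold in any library.

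Xpa (chromosome 4, 46175220 to 46196344 on GRCm38), which verifies the lesion, was at 9.35 FPKM in WT against 5.05, 5.65, 6.89, 5.13 and 7.71. It was highest in WT and lowest in VEMD2, and no other repair gene was lowest there. Xpc, the general damage sensor, was at 2.92 in WT against 3.37, 3.99, 3.03, 2.28 and 2.65, and Ercc1, part of the nuclease that cuts on the 5' side, had ratios of 0.23, 0.37, 0.44, -0.22 and -0.01. Rad23b, which stabilises XPC, was at 74.2 FPKM in WT against 150.37, 163, 152, 105 and 189. Rad23b was above WT in all 5 while Xpc stayed within 1.5-fold of WT. Of 18 further excision genes, 2, 2, 2, 0 and 1 were at least 1.5-fold higher and 0, 0, 0, 4 and 2 lower. Among all tested genes, 10.2%, 16.5%, 14.9%, 11.3% and 10.8% were higher and 7.48%, 11.2%, 13.1%, 25.0% and 14.7% lower.

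Polk (chromosome 13, 96480687 to 96542579 on GRCm38), a polymerase that copies past bulky lesions, differed most among knockouts. It was at 1.68 FPKM in WT against 5.89, 7.91, 6.75, 1.23 and 1.77. The first 3 knockouts were far above WT and the other 2 near it, with ratios of 1.36, 1.73, 1.53, -0.27 and 0.05. Adding 1 FPKM understates the ratio of a gene this low. Polk and Msh6 were the repair genes at least 1.5-fold higher in VEMD2, VEMD3 and VEMD4 together (6.72% of all genes) and also at least 2-fold higher (2.03%). Rrm2b, a subunit of the reductase that makes nucleotides, had the lowest WT level of the 41 genes, 0.77 FPKM, against 1.18, 1.79, 1.67, 1.12 and 1.1. It was above WT in all 5, and it passed the limit of a mean of 1 FPKM only through the knockouts.

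The list of 22 p53 targets split the libraries as Polk did, with 16, 17, 16, 2 and 3 genes at least 1.5-fold higher. Of all tested genes, 10.2%, 16.5%, 14.9%, 11.3% and 10.8% were. Ccng1, a p53 target, was at 22 FPKM in WT against 116, 174, 121, 22.7 and 22.8, and Mdm2, which degrades p53, at 15.7 against 37.4, 62.4, 49.1, 21.2 and 19.6. Cdkn1a, the p53 target that halts the cell cycle, was at 87.6 FPKM against 201, 311, 295, 239.95 and 125, above WT in VEMD6 and VEMD8 too. The 4 repair genes placed in a p53 group by textbook annotation did not share 1 pattern. Polk had this split, and Rrm2b was 1.5-fold higher, with 1 FPKM added, in VEMD3 and VEMD4. Xpc stayed within 1.5-fold of WT, and Ddb2 was below WT throughout. Whether p53 acts on each of the 4 in mouse crypts was not tested. Trp53 itself was at 51.8 against 71.5, 85.8, 69.2, 33.4 and 38.6.

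Beyond the 41 genes, 125 further repair genes were listed from textbook pathways and 123 were tested, with medians of 0.24, 0.31, 0.05, -0.46 and -0.11. At 1.5-fold, 16, 17, 6, 3 and 3 were higher and 2, 2, 7, 44 and 14 lower, where 10.2%, 16.5%, 14.9%, 11.3% and 10.8% of all tested genes were higher and 7.48%, 11.2%, 13.1%, 25.0% and 14.7% lower. The share of the list exceeded that of all genes only for genes higher in VEMD2 and for genes lower in VEMD6. Every other share, in either direction, was below that of all genes. At least 2-fold from WT in 2 or more libraries in 1 direction were Rad23b, described above, and Rev1, Mgmt, Neil3 and Wee1. Rev1, a scaffold of lesion bypass, was at 1.26 FPKM in WT against 3.51, 5.2, 4.14, 0.90 and 1.6. Mgmt, which takes methyl groups off guanine, was at 0.96 against 3.84, 10.5, 7.05, 0.49 and 0.58. Being under 1 FPKM in WT, VEMD6 and VEMD8, Mgmt passed the limit on the mean only through the libraries where it was high. Both passed 1.5-fold upward in the first 3 knockouts and not in VEMD6 or VEMD8, as Polk did.

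Neil3, a glycosylase of dividing cells, was at 11.9 FPKM in WT against 6.84, 4.71, 3.71, 2.35 and 3.82. It was at least 1.5-fold lower than WT in all 5, the only gene of the 123 to be so. Wee1, the kinase that holds back mitosis, was at 9.5 FPKM in WT against 8.55, 8.96, 5.91, 3.91 and 4.04. Ercc5, the nuclease that cuts on the 3' side in nucleotide excision repair, was named after its values were seen, with 3.85 FPKM in WT against 6.81, 11, 8.05, 3.52 and 3.83. Of 12 further genes of bypass and direct reversal, Rev1 and Mgmt among them, 4, 3, 2, 0 and 0 were at least 1.5-fold higher and 0, 0, 0, 1 and 0 lower. Among all tested genes, 10.2%, 16.5%, 14.9%, 11.3% and 10.8% were higher and 7.48%, 11.2%, 13.1%, 25.0% and 14.7% lower.

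Subunits of shared complexes were set side by side, by a list written after values had been seen. Rad50 stayed at 1.23 to 1.53 times the level of Mre11a over the 6 libraries, and Nbn at 1.83 to 2.07 times. Fancd2 stayed at 0.912 to 1.26 times Fanci. Brca1 was 1.53 times Bard1 in WT and 1.75 to 2.51 times in knockouts, and Xrcc1 was 2.44 times Lig3 in WT and 1.33 to 1.74 times in knockouts. Partners in the break-binding and Fanconi complexes kept their proportions more closely than these 2 pairs, which describes the pairs picked and not complexes in general. Atr was 1.48 to 2.02 times Atrip over the 6 libraries. Of the 11 pairs compared, the widest gaps between ratios to WT were 1.80 for Ddb2 and Ddb1 in VEMD6 and 1.44 for Xpc and Rad23b in VEMD8.

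VEMD8 was set against VEMD2 and VEMD6 against VEMD3, 2 comparisons that share no library and need no WT. The median log2 difference of the 40 repair genes was -0.47 in the first and -0.89 in the second, where all tested genes had -0.16 and -0.38 and the proliferation list -0.64 and -1.09. Below 0 were 37 and 39 of the 40 genes. In VEMD8, 12 were at least 1.5-fold lower than in VEMD2 and none higher, against 15.5% and 8.83% of all genes, and 1, Polk, was 2-fold lower (4.24%). In VEMD6, 33 were at least 1.5-fold lower than in VEMD3 and none higher, against 37.2% and 12.2%, and 13 were 2-fold lower (15.7%). Rescaled to the median gene, 3 genes were 1.5-fold lower and 1 higher in VEMD8 than in VEMD2, and 17 were lower in VEMD6 than in VEMD3. No share of all genes was computed for these rescaled comparisons, so an excess in them cannot be judged.

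**Figure D5:**
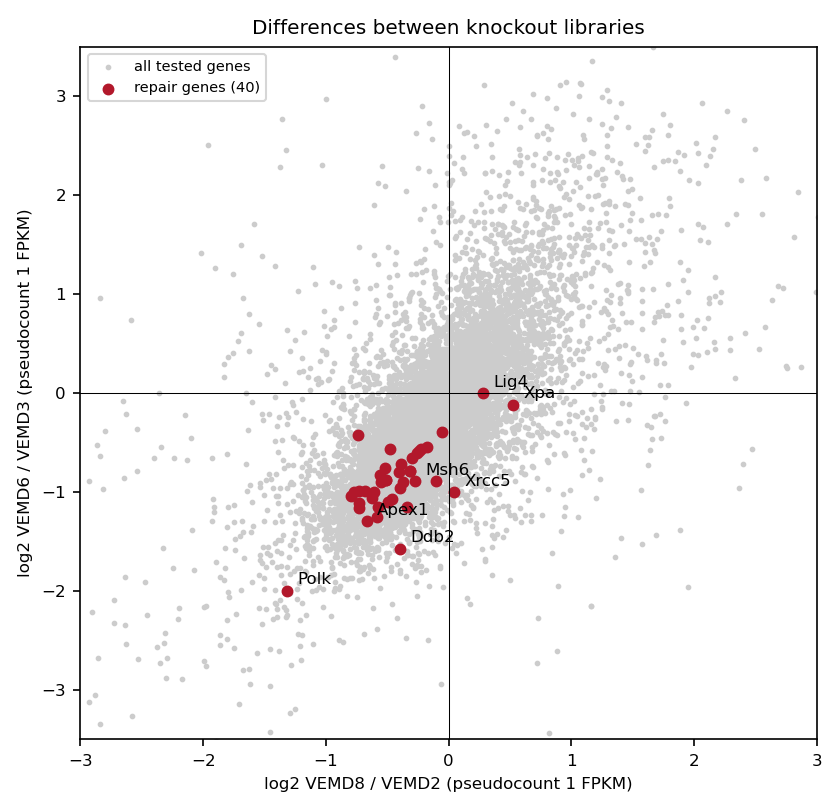
Each point is a gene, with the log2 difference of VEMD8 from VEMD2 on the horizontal axis and of VEMD6 from VEMD3 on the vertical axis (1 FPKM added), all tested genes in grey and the 40 repair genes in red. Polk is lowest among repair genes on both axes, only Xpa, Lig4 and Xrcc5 lie right of 0, and 104 genes are outside the plotted range.

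Polk had the largest difference of the 40 in both comparisons, -1.31 and -2.00, followed in the second by Ddb2 at -1.57 and Apex1 at -1.30. Xpa, at 0.53, Lig4, at 0.28, and Xrcc5, at 0.04, were higher in VEMD8 than in VEMD2, each by less than 1.5-fold with 1 FPKM added. Over the 40 genes both differences correlated with r = 0.72, and over all tested genes with r = 0.67, as a description over genes that share 4 libraries. Levels in VEMD2, VEMD3 and VEMD4 were each above those in VEMD6 and VEMD8 for 34 of the 40, against 43.8% of all genes. VEMD8 was above VEMD6 for 39 of the 40, all but Rrm2b, against 67.4% of all.

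Many repair genes start next to another gene. Of the 32 with a RefSeq start, 14 (43.8%) had a gene on the other strand that starts within 1000 bases and runs away from them, against 20.0% of 8804 tested genes. Ankrd49, which starts 81 bases from Mre11a, had ratios of 0.45, 0.26, -0.09, -0.54 and 0.09, near those of Mre11a in VEMD2, VEMD3 and VEMD6 and opposite in sign in VEMD4 and VEMD8, and its exons overlap 2.60% of those of Mre11a. Npat, a regulator of histone genes that starts 376 bases from Atm, had 0.51, 0.53, 0.33, -0.41 and 0.08, each above the value of Atm. Cert1, a ceramide carrier that starts 156 bases from the upstream start of Polk, was at 17 FPKM in WT against 13.1, 11.3, 11.8, 12.1 and 16.2. It was below WT in every knockout library, while Polk was above WT in all but VEMD6.

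Nbr1, an autophagy receptor that starts 152 bases from Brca1, was at 27.9 FPKM in WT against 29.3, 29.8, 27.4, 34.6 and 34.5, highest in VEMD6 and VEMD8. Osgep, which makes a tRNA modification and starts 56 bases from Apex1, was at 20.3 FPKM against 13.8, 12.8, 9.45, 7.58 and 8.73, below WT in all 5, while Apex1 was above WT in VEMD2 and VEMD3. The 3 printed promoters with CCAAT and TTTCCCGC were picked from genes whose ratios differed: Msh6, Mdc1 and Xrcc6 had 1.69, 0.81 and 0.04 in VEMD3, and 0.80, -0.44 and -0.79 in VEMD6. Chek2, whose promoter holds both motifs too and is not printed, had 0.22 and -0.82.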

How the data were processed

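RNA of 6 crypt libraries was analysed, 1 per group. Per the file headers, the deposited values are FPKM, which the authors computed before deposit. HISAT2, featureCounts and edgeR and the builds GRCm38 and mm10 are named per the submitters' processing notes, without versions. The column headed WT1 was read as the crypt WT library, since the other columns are crypts. Of 20718 lines, 3760 hold no value. Depth is unknown: ratios of low values showed no clear steps of whole counts (the fullest bin held 5.31% to 5.70% of low genes and the next 3.26% to 4.96%). The table of repeats, with 2 columns of values per sample that name no sample, was not used.

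Members and lists were chosen with earlier results of these data known. Symbols, coordinates and promoters came from RefSeq (GRCm38.p6) and exon overlaps from GENCODE M21 (GRCm38). Other genes also overlap 15.4% of the exon bases of Rad54l, 13.2% of Rnf8, 10.6% of Ogg1, 10.5% of Fanca and 10.2% of H2ax. A gene was tested where its mean over 6 libraries reached 1 FPKM, as log2 ratios with a pseudocount of 1 FPKM, and called at 1.5-fold or 2-fold. The counting was tested on simulated data. The genes with values in every library follow a fixed rule on ratio size, range and a named set, unless said otherwise. Rescalings, other pseudocounts and other filters were tried. Python 3.11.15, numpy 2.4.6 and pandas 2.3.3 were used. Some results on partner genes are not reported here.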

Additional observations from a re-analysis of the deposited data

How the results depend on the processing

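No paired analysis was possible because no group has a second library. Counts over 40 genes here are of repair genes at least 1.5-fold from WT unless said otherwise, and the causes of the changes were not tested. No result called at 1.5-fold changed sign under any alternative run, but these runs could hardly show such a change. A changed pseudocount keeps the sign of every ratio, and the rescalings shifted ratios by less than 1.5-fold. The proliferation median was subtracted only from the 5 medians of the set, not from single genes or counts. All 5 medians of the set, none of which reached 1.5-fold, changed sign once the proliferation median was subtracted. Of medians for the set, VEMD2 and VEMD6 were 0.20 and -0.30 with a pseudocount of 5, VEMD3 and VEMD6 were 0.16 and -0.35 after rescaling to the median gene, VEMD3, VEMD4, VEMD6 and VEMD8 were 0.40, 0.23, -0.36 and 0.11 with equal sums, and after subtraction of the proliferation median the 5 were -0.063, -0.056, -0.075, 0.15 and 0.16. With a pseudocount of 0.1, 10 were higher in VEMD2 and 1 was higher in VEMD8 than in VEMD2. With 5, 3 were higher in VEMD2 and 3 in VEMD3, and 0, 0, 0, 6 and 1 lower from VEMD2 to VEMD8, 3 lower in VEMD8 than VEMD2 and 16 lower in VEMD6 than VEMD3. With a mean of at least 5 FPKM, which tests fewer genes, 5 were higher in VEMD3 and 1 in VEMD4, 1, 12 and 1 lower in VEMD4, VEMD6 and VEMD8, and 7 and 21 lower in the 2 pairs. Rescaled to the median gene, 4 were higher in VEMD3, 7 lower in VEMD6, 1 higher and 3 lower in VEMD8 than VEMD2, and 17 lower in VEMD6 than VEMD3. With equal sums, 7 were higher in VEMD4 and 2 in VEMD8, 0, 0, 7 and 1 lower in VEMD3, VEMD4, VEMD6 and VEMD8, and 1 higher and 3 lower in VEMD8 than VEMD2. The median of all tested genes was then 0.13, 0.24, 0.20, 0.01 and 0.16 from VEMD2 to VEMD8. No share of all genes was computed with other pseudocounts, a mean of at least 5 FPKM or equal sums. An excess in those counts therefore cannot be judged. At 2-fold, 2, 2 and 0 were higher in VEMD2, VEMD3 and VEMD6 and 0 in all 5, 0, 0, 0, 4 and 0 lower from VEMD2 to VEMD8, and 1 and 13 lower in the 2 pairs. Leaving out each knockout library in turn added no gene to the 1 higher and 0 lower in all others. Without a filter every count and median was within 1.5 times or 0.1. Some pathway medians near 0 turned sign. A pseudocount of 0.1 turned supply and bypass in VEMD6 to 0.034, and one of 5 turned mismatch repair in VEMD6 to 0.14. A mean of at least 5 FPKM turned damage signalling in VEMD4 to -0.010 and nucleotide excision repair in VEMD3 and VEMD4 to -0.13 and 0.025. The median gene turned end joining and nucleotide excision repair in VEMD3 to -0.044 and -0.081, damage signalling and base excision repair in VEMD4 to -0.0028 and -0.0080, and mismatch repair and supply and bypass in VEMD6 to 0.21 and 0.23. Equal sums turned end joining in VEMD4 to 0.014, mismatch repair and supply and bypass in VEMD6 to 0.20 and 0.16, and homologous recombination, Fanconi and nucleotide excision repair in VEMD8 to 0.16, 0.025 and 0.030.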
